A study of Mus musculus with 12 samples.

Results

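The genes described here are 48 regulators and effectors of the cell cycle and of DNA replication, chosen by name and read as 1 value per gene on each of 12 mouse kidney arrays, among 25947 genes tested in all. They were grouped by role into 11 genes of G1 and entry into S phase, 14 genes of DNA replication and nucleotide supply (S), and 23 genes of G2 and mitosis. The arrays were one-colour Agilent microarrays of whole-kidney RNA from male mice on a C57 background. Of the 4 groups, each with 3 arrays, a pair came from wild-type (WT) mice and a pair from mice with a knockout (KO) of Jaml; in either genotype one group had been sham-operated and the other had undergone ischemia-reperfusion injury (IRI) and was sampled at 24 h. Jaml is an adhesion molecule of leukocytes, and in IRI the blood flow to both kidneys is stopped for a while. How long it was stopped is given as 40 min in the design text and as 30 min in the treatment protocol. The labels name no Cre or tissue restriction for the knockout and give no age. The 3 samples of a group are called independent in the series text, and each array was taken as 1 animal, which the files do not settle for the closest pairs of arrays given below.

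In a dividing cell, D-type cyclins with Cdk4 and Cdk6 start the inactivation of retinoblastoma-family proteins in G1, and cyclin E with Cdk2 completes it. E2F factors are then free to switch on the replication genes: licensing factors load the MCM helicase on DNA, GINS joins it, PCNA clamps the polymerases, and ribonucleotide reductase and thymidylate synthase supply nucleotides. Genes of G2 and mitosis are switched on later, by the MuvB complex with B-Myb and FoxM1, and are held down in resting cells by the DREAM complex, which binds a promoter element called CHR. The adult kidney divides little at rest. Injured tubule cells are known to re-enter the cycle after ischemia, and white blood cells in the tissue can divide as well.

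RefSeq promoters (GRCm38.p6, 250 bases before to 50 after each start) were available for 38 of the 48 genes, and 3 short motifs were searched in them on both strands. The motifs were the CHR core TTTGAA, the CCAAT box CCAAT, and an E2F-type set of TTTCCCGC, TTTGGCGC, TTTCGCGC and TTTGCCGC, where matches can overlap each other. The CHR core lay in the promoters of 13 of 18 mitosis genes (72.2%), 1 of 12 S genes (8.33%) and 0 of 8 G1 genes, against 20.2% of 27025 genes in the table. An E2F-type match lay in 6 of 12 S genes (50%), 2 of 8 G1 genes (25%) and 1 of 18 mitosis genes (5.56%), against 2.6% of all genes. CCAAT was found in 16 of 18 mitosis genes (88.9%), 8 of 12 S genes (66.7%) and 4 of 8 G1 genes (50%), against 41.1% of all genes. A match is a run of letters and does not show that a factor binds there.

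The 170 bases just before the start are shown for 3 mitosis genes whose levels are given below, with every match to a motif in capitals (TTTGAA or TTCAAA for CHR, CCAAT or ATTGG for the CCAAT box, the others E2F-type).
Cdk1 promoter, chr10:69352913-69353082, - strand: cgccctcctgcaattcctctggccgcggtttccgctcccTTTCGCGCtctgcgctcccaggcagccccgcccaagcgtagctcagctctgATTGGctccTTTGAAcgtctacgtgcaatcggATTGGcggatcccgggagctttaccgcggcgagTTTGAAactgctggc
Top2a promoter, chr11:99024190-99024359, - strand: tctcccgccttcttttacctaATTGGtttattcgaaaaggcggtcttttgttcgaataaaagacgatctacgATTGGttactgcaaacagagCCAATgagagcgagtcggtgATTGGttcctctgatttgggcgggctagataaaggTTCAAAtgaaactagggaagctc
Mki67 promoter, chr7:135716380-135716549, - strand: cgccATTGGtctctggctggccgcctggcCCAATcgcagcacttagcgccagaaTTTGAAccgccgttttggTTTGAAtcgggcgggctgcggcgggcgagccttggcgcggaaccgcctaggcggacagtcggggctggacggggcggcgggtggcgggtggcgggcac
The same window is shown for 3 replication genes with an E2F-type match, where capitals again mark every match.
Cdc6 promoter, chr11:98907981-98908150, + strand: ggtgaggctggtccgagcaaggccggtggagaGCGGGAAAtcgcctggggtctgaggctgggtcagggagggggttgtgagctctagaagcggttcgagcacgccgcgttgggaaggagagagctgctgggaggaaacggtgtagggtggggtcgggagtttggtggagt
Mcm5 promoter, chr8:75109339-75109508, + strand: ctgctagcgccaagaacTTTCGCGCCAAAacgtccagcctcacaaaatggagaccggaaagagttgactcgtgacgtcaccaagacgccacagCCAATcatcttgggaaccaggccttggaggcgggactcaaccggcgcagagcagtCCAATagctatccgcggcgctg
Mcm6 promoter, chr1:128359706-128359875, - strand: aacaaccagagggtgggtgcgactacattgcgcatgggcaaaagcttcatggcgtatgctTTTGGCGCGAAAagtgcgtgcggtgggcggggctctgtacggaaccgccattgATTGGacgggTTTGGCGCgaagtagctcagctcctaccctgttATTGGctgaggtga
The G1 kinase gene Cdk6, which differed between WT IRI and WT sham in the other direction, has no match to any of the 3 motifs in this window.
Cdk6 promoter, chr5:3343723-3343892, + strand: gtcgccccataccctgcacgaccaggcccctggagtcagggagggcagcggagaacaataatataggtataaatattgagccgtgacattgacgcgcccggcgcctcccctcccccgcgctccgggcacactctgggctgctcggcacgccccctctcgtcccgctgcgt

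A level below is the log2 processed signal of a gene's brightest probe minus the 75th percentile of its array, so that a gene at 0 lies at that percentile. Between 62.9% and 68.1% of 56605 probes were well above background per array, and no probe was saturated. Probes for all 48 genes were present. Ccne2, a cyclin E, was well above background on 0 of 12 arrays and was not tested, which left 47 genes. The kidney markers Lrp2 and Umod were high on every array (at least 6.05 and 8.05). Jaml itself lay between -0.44 and -0.26 on the WT sham arrays and between -3.54 and -2.59 on the KO sham arrays (limma adjusted p = 0.0152). After IRI it lay between -1.80 and 0.55 in WT and between -3.0 and -1.89 in KO. All 6 WT arrays were on 1 slide and all 6 KO arrays on another, so genotype and slide cannot be told apart in a comparison of KO with WT. WT sham replicates 1 and 2 were closer to each other than other pairs (SD of their log2 differences 0.147), as were KO sham replicates 1 and 3 (0.132), against 0.254 to 0.757 for the other pairs within groups. If the arrays of such a pair are not separate samples, n is 2 in WT sham and in KO sham, and the counts with each pair averaged are given with the results. WT IRI replicate 1 stood apart from replicates 2 and 3 (0.757 and 0.656). WT sham replicate 3 had higher mean levels of injury markers than replicates 1 and 2, each gene centred on its mean over the arrays. The means were -0.19, against -0.83 and -1.06, for injured tubule markers, and 0.47, against -0.63 and -0.51, for neutrophil markers. In WT IRI these means were at least 1.67 and 1.13. The reason was not tested.

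Injury in WT kidneys was compared with sham first. Mitosis genes were lower after IRI, the median difference of the replication genes was close to 0, and a pair of G1 kinase genes was higher. Of the 47 genes, 13 fell and 2 rose past an adjusted p of 0.05 (limma over all 12 arrays, Benjamini-Hochberg over all genes), where 5.9% of all tested genes fell and 6.08% rose (12% in all). By role, 12 of 23 mitosis genes fell, 0 of 14 S genes passed the test in either direction (2 at an unadjusted p under 0.05), and in G1 1 gene fell and 2 rose. The median log2 difference was -1.90 for mitosis, -0.05 for S and -0.22 for G1, beside -0.0057 for all genes tested. The groups did not overlap, with IRI lower, for 15 of 23 mitosis genes and 0 of 14 S genes, against 15.1% of all genes.

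**Figure D1:**
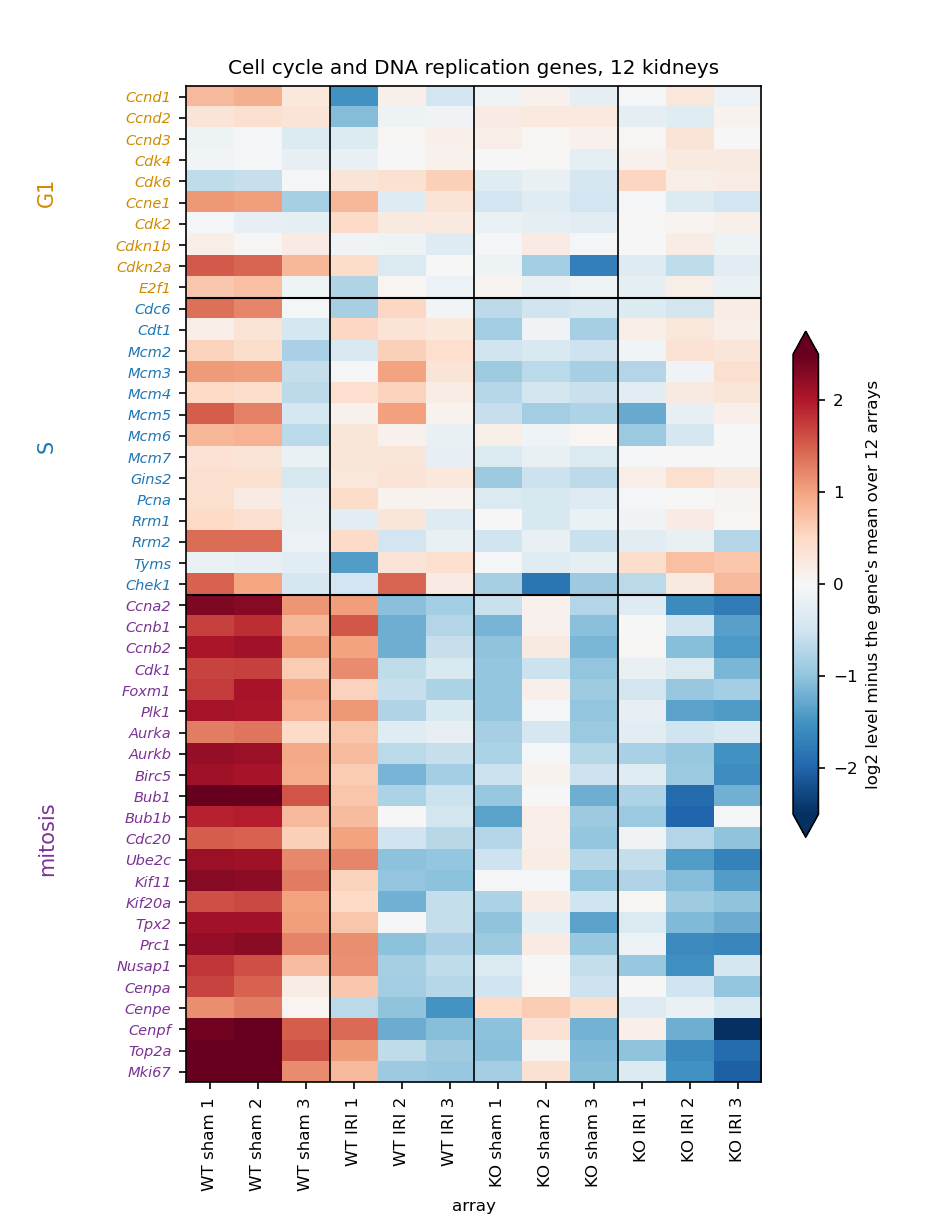
Heat map of the 47 tested genes (rows, ordered by role) on 12 arrays (columns), each value being the log2 level minus the gene's mean over the 12 arrays. The mitosis rows are darkest red in WT sham replicates 1 and 2, paler in WT sham replicate 3 and WT IRI replicate 1, and pale or blue elsewhere, while Cenpe follows another order.

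Mki67, which encodes the proliferation marker Ki-67, stood at 1.82, 1.74 and 0.30 in WT sham and at -0.07, -1.79 and -1.82 in WT IRI. All 3 injured kidneys lay below all 3 sham kidneys, with WT sham replicate 3 and WT IRI replicate 1 nearest to each other. The log2 difference was -2.52 ± 0.64 (SE, n = 3 per group), or 5.72-fold lower (limma adjusted p = 0.0319). Top2a, the topoisomerase that untangles chromosomes before they part, stood at 1.03, 0.98 and -0.13 in WT sham and at -0.65, -2.34 and -2.60 in WT IRI. The order of the arrays was that of Mki67, and the groups did not overlap. Its difference was -2.49 ± 0.54 (5.62-fold lower, limma adjusted p = 0.019). Bub1, a kinase of the spindle checkpoint, stood at -2.45, -2.45 and -3.43 in WT sham and at -4.31, -5.81 and -5.55 in WT IRI. It fell by 2.45 ± 0.48 (5.45-fold lower, limma adjusted p = 0.0139), and a second Bub1 probe had a difference of -1.68.

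The mitotic kinase gene Cdk1 did not pass the test. It stood at -1.16, -1.13 and -2.21 in WT sham and at -1.66, -3.48 and -3.23 in WT IRI. WT IRI replicate 1 lay above WT sham replicate 3, so the groups overlapped (-1.29 ± 0.48, limma adjusted p = 0.105). The other 9 mitosis genes that fell were the kinase Aurkb and its partner Birc5 (survivin), cyclin A2 (Ccna2), the factor Foxm1, the motors Kif11, Kif20a and Cenpe, the spindle assembly factor Tpx2, and Ube2c, which tags cyclins for destruction. Their differences ran from -1.73 (Tpx2) to -2.42 (Kif11). The 10 others that did not pass, besides Cdk1, were Aurka, Bub1b, Ccnb1, Ccnb2, Cdc20, Cenpa, Cenpf, Nusap1, Plk1 and Prc1, with differences from -0.97 (Aurka) to -2.46 (Cenpf), all below 0. Aurka, Bub1b and Plk1 encode kinases of the spindle and its checkpoint, Ccnb1 and Ccnb2 the B cyclins that activate Cdk1, and Cdc20 an activator of the anaphase-promoting complex.

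Cenpe, the kinetochore motor that moves chromosomes to the spindle equator, had the smallest adjusted p of the 47 genes here. Its levels were 0.82, 0.93 and -0.29 in WT sham and -1.03, -1.36 and -1.85 in WT IRI. No injured kidney reached the lowest sham kidney, and WT IRI replicate 1 was close to the other injured kidneys. The difference was -1.90 ± 0.30 (3.73-fold lower, limma adjusted p = 0.0064).

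Among the replication genes, Pcna, the polymerase clamp, stood at 4.19, 3.99 and 3.59 in WT sham and at 4.26, 3.88 and 3.88 in WT IRI. The groups overlapped (0.09 ± 0.16, limma adjusted p = 0.769). Mcm2, a subunit of the replicative helicase, stood at 1.32, 1.20 and -0.06 in WT sham and at 0.36, 1.34 and 1.17 in WT IRI, and these groups overlapped as well (0.14 ± 0.36, limma adjusted p = 0.841). The 14 S differences ran from -0.99 (Cdc6, a helicase loader) to 0.35 (Cdt1, its partner in loading). The gap between the roles can be read within each array. The mean of the S genes minus the mean of the mitosis genes, each gene centred on its mean over the 12 arrays, was -1.26, -1.36 and -1.34 in WT sham and -0.89, 1.28 and 0.82 in WT IRI. Within WT sham this difference varied by 0.0513 (SD, n = 3) although the level of both roles was lower in replicate 3.

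Of the G1 genes, Cdk6, a kinase partner of the D cyclins, stood at 1.1, 1.16 and 1.71 in WT sham and at 2.07, 2.13 and 2.34 in WT IRI. Every injured kidney was above every sham kidney, and Cdk6 rose by 0.86 ± 0.18 (1.81-fold, limma adjusted p = 0.0171). Cdk2, the kinase partner of cyclins E and A, stood at -1.65, -1.80 and -1.84 in WT sham and at -1.13, -1.37 and -1.35 in WT IRI, and rose by 0.48 ± 0.11 (1.39-fold, limma adjusted p = 0.0219). Ccnd1, which encodes cyclin D1, stood at 6.04, 6.12 and 5.48 in WT sham and at 3.71, 5.35 and 4.73 in WT IRI. The groups did not overlap, the lowest value being WT IRI replicate 1, and Ccnd1 fell by 1.28 ± 0.35 (2.43-fold lower, limma adjusted p = 0.0425). This call was lost under 16 of 23 alternatives, with differences from -1.66 to -0.84, the smallest being without WT IRI replicate 1.

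The inhibitor genes of G1 did not pass in this comparison. Cdkn1b, which encodes the CDK inhibitor p27, stood at 2.41, 2.30 and 2.47 in WT sham and at 2.19, 2.15 and 1.94 in WT IRI (-0.30 ± 0.13, limma adjusted p = 0.152). Its groups did not overlap, although the difference was small. Cdkn2a, the locus of the inhibitors p16 and p19Arf, stood at -4.98, -5.05 and -5.67 in WT sham and at -6.04, -6.86 and -6.52 in WT IRI. It was well above background on all 3 WT sham arrays and on none of the other 9 (limma adjusted p = 0.054). The remaining G1 genes Ccnd2, Ccnd3, Ccne1, Cdk4 and E2f1 had differences from -0.77 (Ccnd2) to 0.11 (Ccnd3), with 0 past the threshold.

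**Figure D2:**
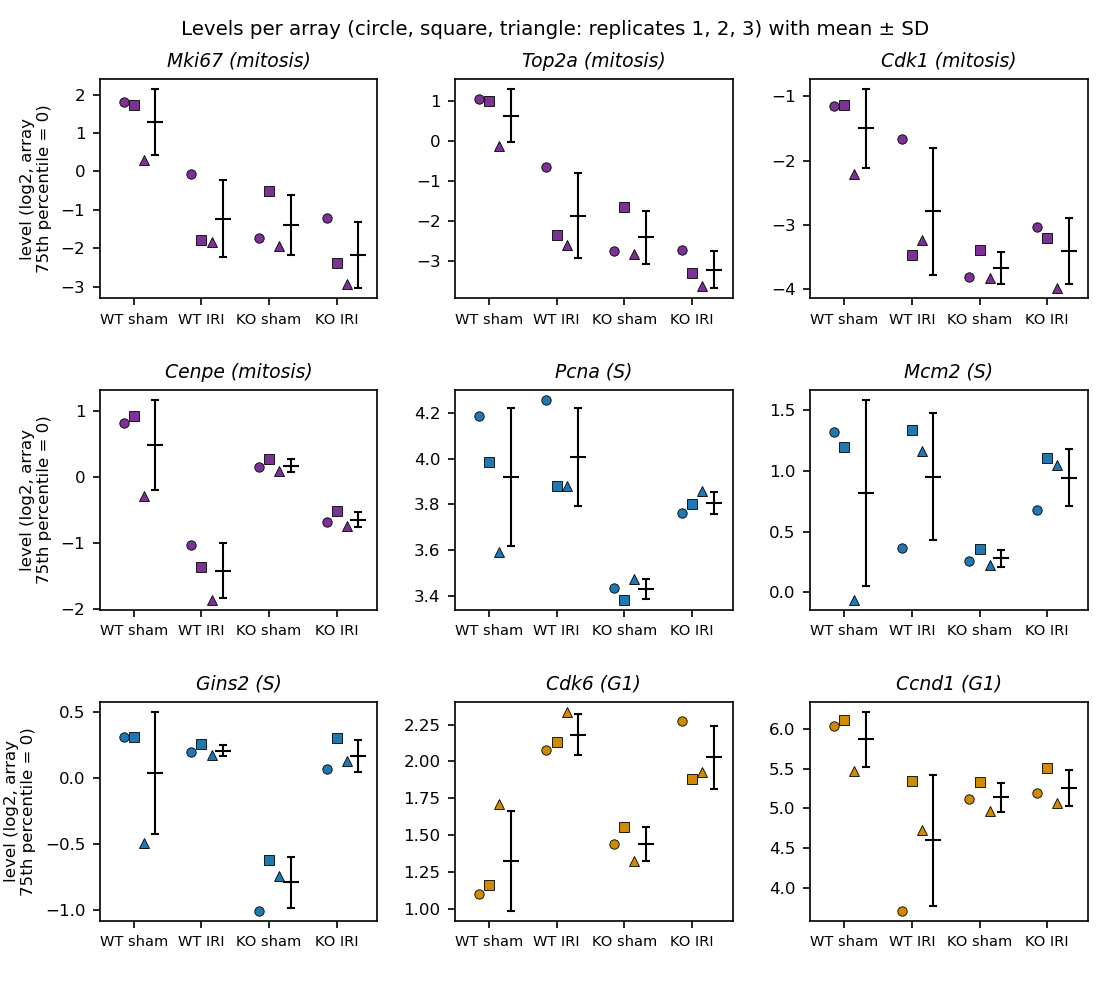
Levels of 9 genes on each array (log2, the array's 75th percentile at 0, a separate y range per panel) by group, with symbols for replicates 1 to 3 and the mean ± SD of 3 arrays beside them. Mki67, Top2a and Cdk1 are highest in WT sham, Cenpe is lowest in WT IRI, Gins2 and Pcna are lowest in KO sham, and Cdk6 is higher in both IRI groups.

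These counts leaned on single arrays. Without WT sham replicate 1 or without replicate 2 the count of 15 became 1, and without WT IRI replicate 3 it was 2, while without WT IRI replicate 1 it was 27. With WT sham replicate 3 as the only sham array, a choice made after seeing the values, it was 0, the median of the mitosis genes was -1.24 and that of the S genes 0.73. When WT sham replicates 1 and 2 were averaged into 1 sample, and likewise KO sham replicates 1 and 3, it was 0 as well, with a mitosis median of -1.72.

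T and NK cell markers and some macrophage markers were lower in WT IRI and in KO sham than in WT sham, as the mitosis genes were. Neutrophil and B cell markers followed other orders. The mean of 13 tested T and NK cell markers (of 15), centred per gene, was 2.94, 2.97 and 0.53 on the WT sham arrays, and lay between -0.96 and -0.51 in WT IRI, between -0.57 and 0.39 in KO sham and between -1.52 and -1.13 in KO IRI. Of these 13 markers, 10 were lower in WT IRI than in WT sham past the threshold (median -3.44). In KO sham against WT sham 7 were lower (median -2.75). Between KO IRI and KO sham 0 passed (4 at an unadjusted p under 0.05, limma), but all 13 differences were below 0 (median -1.45). KO IRI lay below KO sham on all arrays for 9 of the 13, against 21.8% of all genes. Of 11 macrophage and monocyte markers, 5 were lower and 1 higher in WT IRI against WT sham (median -0.88). In KO sham against WT sham 5 were lower and 0 higher (median -1.14). In KO IRI against KO sham 2 were lower and 1 higher (median 0.19), where the mitosis median was -0.57. Of 10 neutrophil markers, 4 were higher and 1 lower in WT IRI against WT sham (median 1.00) and 3 were lower in KO sham against WT sham (median -0.49). Of 6 B and plasma cell markers, 1 was lower in WT IRI against WT sham (median -0.45), and 0 passed in KO sham against WT sham (median 0.26; 1 at an unadjusted p under 0.05, limma). Markers of other cells differed in WT IRI against WT sham too. Past the threshold, 5 of 8 injured tubule, 3 of 5 adipocyte and 5 of 8 erythroid markers were higher. Lower were 4 of 10 proximal tubule and 3 of 6 thick limb and distal tubule markers. WT sham replicates 1 and 2 held the highest values of both the mitosis genes and the T and NK cell markers. The part of these cells in the mitosis results was not tested, and in whole tissue fewer cells of a type and less RNA per cell cannot be told apart. In WT IRI replicate 1 the mitosis mean was 0.85 while the T and NK cell mean was -0.58.

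**Figure D3:**
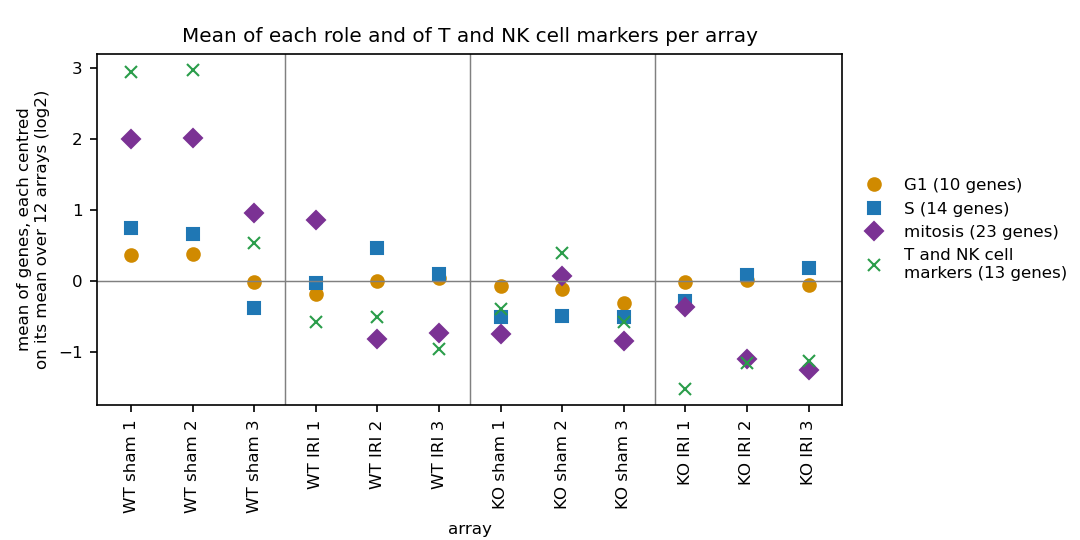
Mean of the G1, S and mitosis genes and of T and NK cell markers on each of the 12 arrays, every gene centred on its own mean over the arrays (log2). WT sham replicates 1 and 2 hold the highest mitosis means (2.00 and 2.01) and T and NK cell means (2.94 and 2.97), and WT IRI replicate 1 holds a mitosis mean of 0.85 with a T and NK cell mean of -0.58.

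In KO kidneys, 1 of 14 replication genes, Gins2, rose after IRI, and no mitosis gene passed the test. Of the 47 genes, 1 rose and 0 fell past the threshold (7 at an unadjusted p under 0.05, limma), where 2.1% of all genes rose and 4.05% fell (6.16% in all). The share of the 47 genes that rose, 2.13%, was thus close to that of all genes. The median difference was 0.51 for S, -0.57 for mitosis and 0.13 for G1, beside -0.08 for all genes. In the S list, 13 of 14 differences were above 0, and IRI lay above sham on all arrays for 8 of 14, against 13.9% of all genes. In the mitosis list, 20 of 23 differences were below 0, and IRI lay below sham on all arrays for 2 of 23 (Aurkb and Cenpe), against 21.8% of all genes.

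Gins2, a subunit of the GINS complex that completes the replicative helicase, was the gene that rose. It stood at -1.01, -0.62 and -0.74 in KO sham and at 0.07, 0.31 and 0.13 in KO IRI. The groups were apart by more than their spread, and the difference was 0.96 ± 0.21 (1.94-fold, limma adjusted p = 0.0256). This call was lost when any one of the 6 KO arrays was left out, the difference then lying between 0.85 and 1.04. Pcna stood at 3.43, 3.38 and 3.47 in KO sham and at 3.76, 3.80 and 3.86 in KO IRI (0.38 ± 0.16, limma adjusted p = 0.214). Mcm2 stood at 0.26, 0.36 and 0.22 in KO sham and at 0.68, 1.11 and 1.05 in KO IRI (0.66 ± 0.36, limma adjusted p = 0.32). Both genes were higher on every IRI array, and neither passed the test. The other S genes with IRI above sham on all arrays were Cdt1 (0.79), Chek1 (1.31), Mcm4 (0.67), Mcm7 (0.29) and Tyms (0.82). Chek1 encodes the checkpoint kinase of stalled forks and Tyms thymidylate synthase. Mcm6 alone among the S genes had a difference below 0 (-0.48), and Rrm1 and Rrm2, the subunits of ribonucleotide reductase, had differences of 0.24 and 0.01.

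The mitosis genes started from a low level in KO sham. Mki67 stood at -1.73, -0.51 and -1.94 in KO sham and at -1.22, -2.39 and -2.92 in KO IRI (-0.78 ± 0.64, limma adjusted p = 0.539). Top2a stood at -2.76, -1.65 and -2.82 in KO sham and at -2.72, -3.30 and -3.63 in KO IRI (-0.81 ± 0.54, limma adjusted p = 0.438). KO sham replicate 2 was the highest of its group for both genes, and the groups overlapped. Cdk1 stood at -3.82, -3.39 and -3.83 in KO sham and at -3.03, -3.21 and -3.99 in KO IRI (0.27 ± 0.48, limma adjusted p = 0.802). Without KO sham replicate 2 the median of the mitosis genes was -0.14 in place of -0.57. Cenpe stood at 0.15, 0.28 and 0.10 in KO sham and at -0.68, -0.51 and -0.74 in KO IRI, with no overlap (-0.82 ± 0.30, limma adjusted p = 0.155).

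Among the G1 genes in KO, Cdk6 stood at 1.44, 1.55 and 1.32 in KO sham and at 2.27, 1.88 and 1.93 in KO IRI, above sham on every array (0.59 ± 0.18, limma adjusted p = 0.0881). Cdk2 stood at -1.77, -1.81 and -1.87 in KO sham and at -1.56, -1.53 and -1.48 in KO IRI, with no overlap either (0.29 ± 0.11, limma adjusted p = 0.157). Ccnd1 showed no such separation, at 5.12, 5.33 and 4.97 in KO sham and 5.20, 5.51 and 5.07 in KO IRI (0.12 ± 0.35, limma adjusted p = 0.887). Cdkn1b stood at 2.22, 2.48 and 2.22 in KO sham and at 2.27, 2.45 and 2.14 in KO IRI (-0.02 ± 0.13, limma adjusted p = 0.946). Of these 4 genes, the kinases were separate and the cyclin and the inhibitor were not. Cdkn2a signal was near background on all 6 KO arrays.

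Mitosis genes were lower in KO sham kidneys than in WT sham kidneys, and the replication gene Gins2 was lower too. Cdkn2a was also called lower, but its probe was well above background on the WT sham arrays alone and was kept for the test through them. In KO sham against WT sham, 19 of 47 genes were lower and 0 higher past the threshold, where 3.73% of all genes were lower and 5.12% higher (8.85% in all). The median over all genes was 0.12 in this comparison, so that the members lay further below the rest by that amount. By role, 17 of 23 mitosis genes, 1 of 14 S genes and 1 of 10 G1 genes were lower, with medians of -2.25, -0.64 and -0.10. KO sham lay below WT sham on all arrays for 22 of 23 mitosis genes and 8 of 14 S genes, against 12.2% of all genes.

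Top2a had the largest difference, -3.04 ± 0.54 (8.2-fold lower in KO sham, limma adjusted p = 0.01), with all KO sham arrays below all WT sham arrays. Bub1 passed the test as well (limma adjusted p = 0.00728), but its probe was well above background on 3 WT sham arrays and on 1 KO sham array only, so the fitted difference of -2.95 is not an exact size. Across alternatives it ran from -3.51 to -1.04, and a second Bub1 probe differed by 0.31 in the other direction. Mki67 differed by -2.68 ± 0.64 (6.41-fold lower, limma adjusted p = 0.031). Cdk1, which overlapped between WT groups, was separate here, with a difference of -2.18 ± 0.48 (4.53-fold lower, limma adjusted p = 0.0224). The other 13 mitosis genes lower in KO sham were Aurka, Aurkb, Birc5, Bub1b, Ccna2, Ccnb2, Foxm1, Kif11, Kif20a, Plk1, Prc1, Tpx2 and Ube2c, with differences from -1.75 (Aurka) to -2.61 (Tpx2). For Prc1, an organiser of the central spindle, 2 of its 5 probes differed by 0.48 and 0.49 in the other direction.

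Cenpe was the exception among the 23. Its KO sham values, between 0.10 and 0.28, lay within the WT sham range of -0.29 to 0.93 (-0.31 ± 0.30, limma adjusted p = 0.589). Ccnb1, Cdc20, Cenpa, Cenpf and Nusap1 were separate between the groups but did not pass, at -1.44 to -2.78.

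Of the S genes, Gins2 was lower in KO sham. It stood at 0.31, 0.31 and -0.49 in WT sham, above the highest KO sham value of -0.62 (-0.83 ± 0.21, 1.78-fold lower, limma adjusted p = 0.0354). This call was lost without WT sham replicate 1 or 2, without any one of the KO sham replicates and without KO IRI replicate 3, with differences from -0.70 to -0.92. Pcna was separate and did not pass (-0.49 ± 0.16, limma adjusted p = 0.09), and Mcm2 overlapped through WT sham replicate 3 (-0.54 ± 0.36, limma adjusted p = 0.398). Among the other S genes, Cdc6, Chek1, Mcm3, Mcm5, Mcm7 and Rrm2 were separate, with differences from -0.47 (Mcm7) to -1.87 (Chek1), and Tyms differed by 0.03. Of the G1 genes, Cdkn2a was called lower in KO sham (limma adjusted p = 0.00821 for the fitted difference). Its probe was kept only through the 3 WT sham arrays, the group where it was high, so the filter favoured this call. With the background correction of the scanner software it was at least 1.64-fold lower, a bound set by the lowest signal that counts as well above background. Another background correction (normexp) gave Cdkn2a a difference of -0.18, short of the threshold. Ccnd1 (-0.74 ± 0.35), Cdkn1b (-0.09 ± 0.13), Cdk6 (0.11 ± 0.18) and Cdk2 (-0.05 ± 0.11) did not pass either.

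The count of 19 became 5 when one array was left out, whether WT sham replicate 1 or 2 or KO sham replicate 1 or 3. With WT sham replicate 3 alone it was 0 and the mitosis median -1.52, and with the closest pairs averaged it was 0 and the median -1.93. The T and NK cell markers, lower in 7 of 13 as given above, moved in the same direction, and genotype and slide cannot be told apart.

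**Figure D4:**
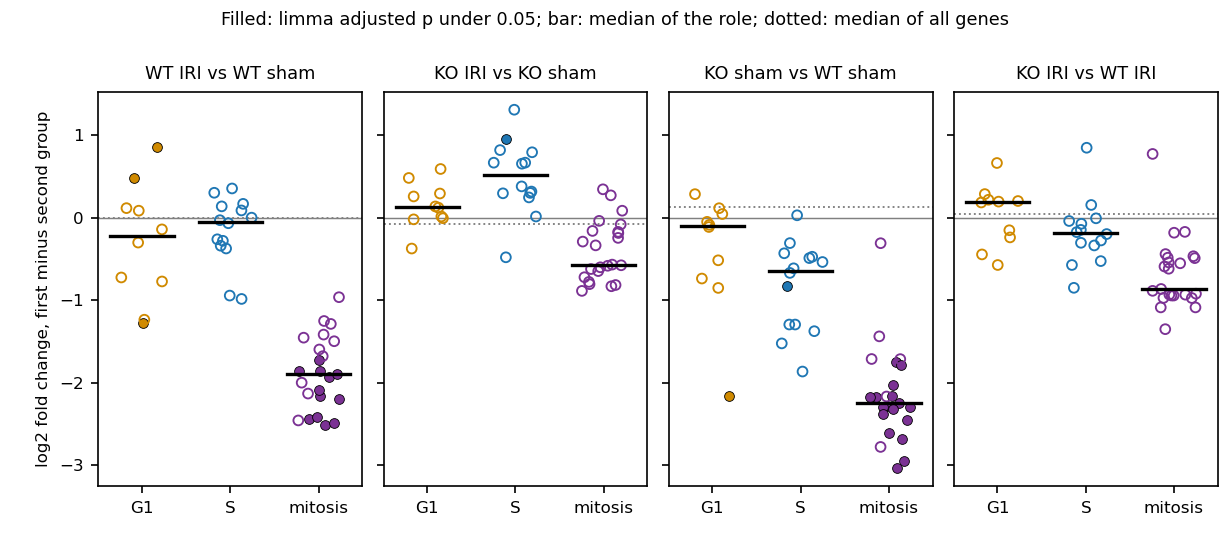
Log2 difference of each tested gene in 4 comparisons (panels, first group minus second) by role, where filled points passed a limma adjusted p of 0.05, bars are role medians and the dotted line is the median of all genes. Mitosis genes have medians of -1.90 in WT IRI against WT sham and -2.25 in KO sham against WT sham, and S genes have a median of 0.51 in KO IRI against KO sham.

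After IRI the genotypes were not told apart by these genes. In KO IRI against WT IRI, 0 of 47 genes passed the limma test (3 at an unadjusted p under 0.05: Bub1, Cenpe and Top2a), where 1.93% of all genes did (1.02% lower and 0.91% higher). The Bub1 probe used was well above background on 1 of 3 KO IRI arrays and differed by -1.09, and the second probe by 1.03 in the other direction. The mitosis median was -0.87, with 22 of 23 differences below 0, the S median -0.19 and the G1 median 0.19, beside 0.04 for all genes. The mitosis median was -0.13 without WT IRI replicate 1, and the G1 median turned to -0.04. Top2a, the mitosis gene with the largest difference, lay lower on every KO IRI array than on any WT IRI array (-1.35 ± 0.54, limma adjusted p = 0.192), which held in 9.45% of all genes. Cenpe lay higher on every KO IRI array, which held in 12.3% of all genes (0.77 ± 0.30, limma adjusted p = 0.186), the only mitosis gene of the 23 with a difference above 0.

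The difference between the IRI responses, KO minus WT, was tested as an interaction within the model, and 0 of 47 genes passed (12 at an unadjusted p under 0.05, limma), where 0.0694% of all genes did (0.0501% lower and 0.0193% higher). All 23 mitosis differences were above 0, with a median of 1.56, and 13 of 14 S differences, with a median of 0.63, beside -0.09 for all genes. With WT sham replicate 3 alone these medians were 0.78 and -0.03. The fall of mitosis genes in WT and its absence from the KO calls are therefore not shown to differ gene by gene.

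The S genes minus the mitosis genes, read within each array as before, stood at 0.25, -0.57 and 0.34 in KO sham and at 0.09, 1.18 and 1.45 in KO IRI. KO sham replicate 2, with the highest T and NK cell mean of the KO arrays (0.39), had the lowest value among the KO arrays. Within KO IRI the order was the other way, as replicate 1 had the lowest value (0.09) and the lowest T and NK cell mean (-1.52). The WT sham arrays, at -1.36 to -1.26, lay below the other 9 arrays. Group means ± SD (n = 3) were -1.32 ± 0.0513 in WT sham, 0.40 ± 1.14 in WT IRI, 0.01 ± 0.50 in KO sham and 0.91 ± 0.72 in KO IRI.

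A wider set of 116 genes of the same pathways was read beside the members: 24 other G1 regulators, 42 other replication genes and 50 other mitosis genes. In WT IRI against WT sham, 20 of these genes fell (17.2%, beside 5.9% of all genes) and 4 rose (3.45%, beside 6.08%), 17 of the falls being among the mitosis genes and 0 among the replication genes. Pbk (-2.99 ± 0.70) and Melk (-2.53 ± 0.46) fell, with limma adjusted p of 0.0244 and 0.0104. Kif18b passed as well (limma adjusted p = 0.0341). Its signal exceeded background on 1 of 3 WT IRI arrays, its fitted difference ran from -4.04 to -0.61 across alternatives, and the call was lost under 10 of 22. The Kif18b probe was kept through the WT sham arrays, where it was high, so the filter favoured this call. Melk and Pbk encode mitotic kinases, and Kif18b a motor that shortens spindle microtubules. E2f8, a repressor of the E2F family, fell by 2.39 (SE 0.42, limma adjusted p = 0.00948), the pocket protein gene Rbl1 (p107) by 1.28 (SE 0.26, 0.0154) and the inhibitor gene Cdkn2c (p18) by 0.56 (SE 0.16, 0.0475). E2f3, an activator E2F, rose by 1.08 ± 0.21 (limma adjusted p = 0.0139), and Mycn, a growth factor-responsive transcription factor, by 0.60 ± 0.16 (limma adjusted p = 0.0397). Among replication genes, Ung, which removes uracil from DNA, rose by 1.63 ± 0.37 (limma adjusted p = 0.021), and Rfc3, a clamp loader subunit, by 0.81 ± 0.13 (limma adjusted p = 0.00614). Of 23 alternatives, 16 lost the call of Cdkn2c (to -0.34) and 13 that of Mycn (to 0.53).

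In KO IRI against KO sham, 2 of the 116 rose (1.72%, beside 2.1% of all genes) and 0 fell. These were Rfc3 (0.70 ± 0.13, limma adjusted p = 0.0136) and the helicase gene Mcm8 (0.71 ± 0.18, limma adjusted p = 0.0454). The call of Mcm8 was lost under 12 of 23 alternatives and that of Rfc3 under 4. Rfc3 passed the test in both genotypes. It stood between -0.33 and -0.05 in WT sham and 0.52 and 0.74 in WT IRI, and between -0.40 and -0.13 in KO sham and 0.30 and 0.54 in KO IRI, with no overlap between sham and IRI arrays of either genotype.

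In KO sham against WT sham, 33 of the 116 were lower (28.4%, beside 3.73% of all genes) and 1 higher (0.862%, beside 5.12%), with 23 of 50 mitosis genes, 7 of 42 replication genes and 3 of 24 G1 regulators lower. Ckap2l, a spindle protein gene, was lower (limma adjusted p = 0.0128). It was well above background on 1 of 3 KO sham arrays, so the fitted difference of -3.45 is not an exact size. It ran from -4.20 to -0.77 across 23 alternatives, of which 5 lost the call. Kif18b and Kif2c, both motor genes, had signal near background on all 3 KO sham arrays. After IRI, each was well above background on 1 WT array and 0 KO arrays. Both probes were thus kept through the WT sham arrays, the group where they were high, so the filter favoured these calls. With the background correction of the scanner software, Kif18b was at least 3.35-fold lower and Kif2c at least 2.72-fold lower. With normexp the differences were -0.61 and -0.42 on the log2 scale, short of the threshold, and of 22 alternatives 3 lost the call of Kif18b and 7 that of Kif2c. Of the replication genes, Dtl (-2.52 ± 0.60), Asf1b (-2.12 ± 0.46) and Uhrf1 (-2.04 ± 0.49) were lower (limma adjusted p = 0.0297, 0.0222 and 0.0317). Dtl directs the destruction of Cdt1, Asf1b carries histones, and Uhrf1 maintains DNA methylation at forks. Of the G1 regulators, E2f8 (-2.74 ± 0.42), Cks1b (-0.99 ± 0.27), a CDK subunit, and the repressor E2f4 (-0.58 ± 0.11) were lower, and Mycn was higher (0.94 ± 0.16), with limma adjusted p of 0.00591, 0.0469, 0.0139 and 0.00913. Of 23 alternatives, 14 lost the call of Cks1b (to -0.31), 8 that of Dtl (to -1.03), 7 that of Uhrf1 (to -0.94) and 6 that of Asf1b (to -0.99).

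After IRI, 1 of the 116 differed between genotypes past the threshold (0.862%, beside 1.93% of all genes). E2f4 was lower in KO IRI than in WT IRI (-0.85 ± 0.11, limma adjusted p = 0.00801). It lay between -2.39 and -2.11 on the 6 KO arrays and between -1.74 and -1.29 on the 6 WT arrays. For the interaction, 0 of the 116 passed (31 at an unadjusted p under 0.05, limma).

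Cdkn1a, which encodes the CDK inhibitor p21, was not among the genes that passed in any comparison. It stood at 0.08, 0.22 and 1.88 in WT sham, 4.81, 1.28 and 2.08 in WT IRI, -1.58, -1.40 and -1.55 in KO sham, and 1.83, 0.93 and 0.44 in KO IRI. WT IRI replicate 1 was the highest, and WT sham replicate 3 lay above WT IRI replicate 2, so that the WT groups overlapped (2.00 ± 0.81, limma adjusted p = 0.132). In KO every IRI array was above every sham array (2.57 ± 0.81, limma adjusted p = 0.0943). Every KO sham array was below every WT sham array without passing the test, and leaving out 1 array gave differences from -2.56 to -1.66. Over all 23 alternatives the difference ran from -3.39 to -1.22, and it passed under 3. IRI against sham passed under 2 of 23 alternatives in WT and 3 of 23 in KO. After IRI, KO differed from WT by -1.66 ± 0.81, with overlap (limma adjusted p = 0.26). Genotype and slide cannot be told apart in either comparison. WT sham replicate 3, which had the lowest mitosis and S means of its group, had its highest Cdkn1a level. In the other groups the array with the highest Cdkn1a level had the highest mitosis mean. These were WT IRI replicate 1 (0.85), KO sham replicate 2 (0.07) and KO IRI replicate 1 (-0.38). A relation between Cdkn1a and the mitosis genes was not tested.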

How the data were processed

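Kidney RNA was measured on 12 one-colour Agilent arrays, 3 per group. The deposited scanner files hold spot intensity from Agilent Feature Extraction 10.7.1.1, background-corrected within the array and not scaled between arrays, per the file headers. The authors' deposited table holds log2 values, for which the submitters' processing notes name limma without a version; it served as an alternative.

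Control spots and outlier flags were left out, spots of a probe were averaged, and log2 intensity was reduced by each array's 75th percentile. A probe was kept if well above background on at least 3 arrays (39450 of 56605 probes; 84 of 87 for the members). The brightest kept probe stood for a gene. The members are those with the given gene names, and 22 had several kept probes.

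limma 3.58.1 in R 4.3.3 fitted 1 coefficient per group over all 12 arrays (8 residual degrees of freedom), two-sided, with Benjamini-Hochberg adjustment over 25947 genes at 0.05. Errors are SE from this fit unless named SD. The precision is limited by 3 arrays per group. The p-values set each mean difference against a spread between arrays that is pooled over the 4 groups. That is a spread between animals only if each array is 1 animal. The fit was tested on simulated data with independent arrays and 1 spread per gene. Those data lacked the close pairs of arrays and the divergent WT IRI replicate 1, so the test does not cover their effect.

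Per-array values were given for Mki67, Top2a, Pcna, Mcm2, Cdk1, Ccnd1, Cdkn1b, Cdkn2a and, per comparison and role, up to 3 genes past the threshold in each direction; pathway genes were named by the same limit of 3, with Cdkn1a always. Cenpe, Chek1 and others outside this rule were named after their values were seen. The members and lists were chosen with earlier results of these data known. Alternatives were quantile normalization, normexp with an offset of 50, the authors' table, other probe filters, the mean of all probes, only the groups compared, a replicate block, array weights and leaving out each array.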

Additional observations from a re-analysis of the deposited data

How the results depend on the processing

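The role medians kept their sign under every scaling, background and probe alternative, and no named gene past the threshold turned its direction. Single other probes were not run as alternatives, and some probes of Bub1 and Prc1 differed in the other direction in KO sham against WT sham, as given above. Counts of members past the threshold moved. In WT IRI against WT sham (15) the count was 0 with only the groups compared, 34 with array weights, 0 with the closest pairs averaged and 0 with WT sham replicate 3 alone, the last 2 chosen after seeing the data, and 1 to 27 when leaving out 1 array. In KO IRI against KO sham (1) it was 2 with normexp, 4 with only the groups compared, 10 with array weights, 0 with the pairs averaged and 0 to 3 when leaving out 1 array. In KO sham against WT sham (19) it was 11 with no filter on dim probes, 40 with array weights, 0 with the pairs averaged, 0 with WT sham replicate 3 alone and 5 to 27 when leaving out 1 array. In KO IRI against WT IRI (0) it was 1 with array weights, and for the interaction (0) 24, all higher. Leaving out 1 array gave 0 for both. The cause was not tested.

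With the replicate number as a block the counts were 18, 1, 20, 0 and 0, in the order above. Same-numbered arrays did not deviate together (correlations from -0.27 to 0.15), so the numbers were not taken as a pairing. A slide block was not run, because slide equals genotype. With 3 arrays per group and signals near background for Cdkn2a, Bub1, Kif18b, Kif2c and Ckap2l, sizes below background are bounds.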
